A study of Mus musculus with 6 samples.

Results

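The coding Hox genes are the transcription factor genes of the Hoxa, Hoxb, Hoxc and Hoxd clusters. They were taken as every gene symbol of the count table that consists of Hoxa, Hoxb, Hoxc or Hoxd and a number. This gave 39 of 24062 genes, 11 in Hoxa on chromosome 6, 10 in Hoxb on chromosome 11, 9 in Hoxc on chromosome 15 and 9 in Hoxd on chromosome 2. The 4 RNAs of the same clusters that run on the opposite strand or lie between the coding genes and have a symbol in the table (Hotair, Hottip, Hoxa11os and Hoxd3os1), and the 6 microRNA genes of the clusters, were read beside them. The RNA was obtained by TRAP, in which ribosomes tagged with GFP on the protein L10a are pulled down with anti-GFP so that the RNA attached to them can be sequenced. In GFP-L10aEC mice the tagged L10a stands behind a stop at the Rosa26 locus that is removed by a Cre driven by the VE-cadherin promoter, so that the tag is expected in the endothelium. All mice were labelled female, carried these alleles, and had been ovariectomized, at 6 weeks of age by the study's methods, whereas the labels give an age of 4 weeks. One group received placebo pellets (vehicle) and the other pellets of 17β-estradiol (E2) for 4 weeks, after which gastrocnemius and soleus muscle were taken. There were 3 libraries in each group, each labelled with 2 mouse numbers, and the sources used here do not give whether these are pooled mice. The study's methods give more biological replicates per group than there are libraries here, so that p-values measure the spread between these libraries.

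Hox genes encode homeodomain proteins that give cells their position along the body axis and along the limb, and adult cells of mesenchymal and endothelial origin keep part of the Hox pattern of the place they came from. Within a cluster the genes stand in the order in which they are used from head to tail, and genes of the same number in different clusters, called paralogs, descend from the same ancestral gene. Hox proteins bind DNA with TALE homeodomain partners such as the Meis proteins, and their clusters are held silent by Polycomb proteins and kept active by Trithorax proteins.

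The totals of counts were low, from 84823 in vehicle replicate 3 to 451034 in vehicle replicate 2, and 28.5% to 42.9% of them fell on Rn45s, the ribosomal RNA precursor. As CPM, the count scaled to a library total of 1e+06, a single count therefore stood for 2.22 in the deepest library and for 11.8 in the shallowest. A value of 0 allows up to 3 counts, or 6.65 to 35.4 CPM in a library, by counting error only. The 2 deepest libraries went against their label. Vehicle replicates 1 and 2 held 40 and 63 counts of Y-linked genes, where the other 4 libraries had 0, and their summed level of pancreatic acinar genes was 312 and 262 CPM, against 4.97 to 23.8 CPM in the others. Xist, the RNA of the inactive X chromosome, had 1 count in each of them, against 3 in vehicle replicate 3 and 6, 17 and 9 in E2. The counts of these 2 libraries correlated with each other at r = 0.949 over genes on the log scale, and with vehicle replicate 3 at 0.569 and 0.575. Vehicle replicate 3 correlated more closely with the E2 libraries, at 0.676 to 0.768, than with the other libraries of its own group. The main fits and sums are given below also without these 2 libraries. Endothelial markers were present in all libraries, at a summed level of 259 to 829 CPM in vehicle and 127 to 612 CPM in E2. Skeletal muscle fiber genes were far higher, at 46827 to 88004 CPM in vehicle and 36774 to 43413 CPM in E2. In such bulk RNA, fewer cells of a type and less RNA per cell cannot be told apart.

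Reads on the Hox clusters came mostly from Hoxa7 and Hoxd3. Over the 39 genes the 6 libraries held 903 counts, of which 426 were in the Hoxa cluster, 59 in Hoxb, 103 in Hoxc and 315 in Hoxd. No read fell on 15 of the genes in any library, 15 others had 1 to 9 counts, and 9 had 10 or more, namely Hoxa7, Hoxa9, Hoxa10, Hoxb2, Hoxb7, Hoxc9, Hoxc10, Hoxd3 and Hoxd8. The number of Hox genes with a count was 19, 21 and 12 in vehicle and 14, 10 and 11 in E2, so that the 2 deepest libraries also showed the most genes.

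**Figure D1:**
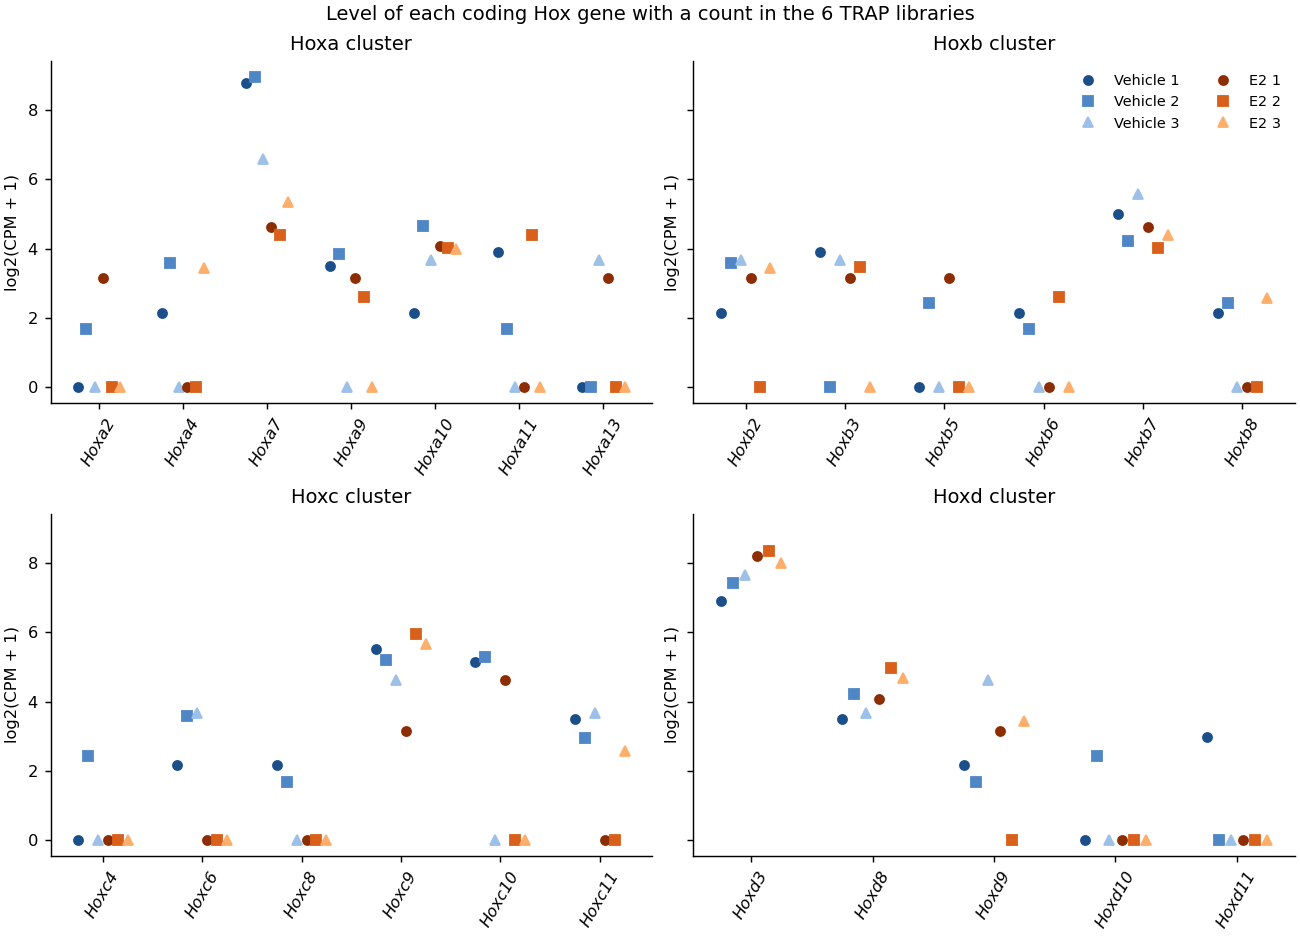
Level of the 24 coding Hox genes with a count in each library as log2(CPM + 1), with 1 panel per cluster and the genes in order of their number. Blue symbols are the 3 vehicle libraries and orange to brown symbols the 3 E2 libraries; Hoxa7 stands highest in vehicle replicates 1 and 2 and Hoxd3 in the other 4 libraries, while many of the remaining genes are at 0 in some libraries.

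Hoxa7 and Hoxd3 were the only Hox genes with enough counts for the fit over all genes, in which edgeR's filter on low counts kept 1682 genes. For a library of median depth this filter asks for 50.1 CPM in at least 3 libraries. Hoxd3 reached that level in all 6 libraries and Hoxa7 in the 3 vehicle libraries only, so that the entry of Hoxa7 into the fit rested on the group in which it was high. In edgeR, by the quasi-likelihood test and with p-values adjusted by Benjamini-Hochberg, Hoxa7 was lower with E2 at an adjusted p below 0.05, as were 2.97% of all genes tested, and no Hox gene was higher at that threshold, which 2.50% of all genes reached. At an unadjusted p of 0.05 or less, 1 Hox gene was lower and 1 was higher (15.1% and 10.5% of all genes). With 2 genes tested, these counts cannot be read against the background.

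Hoxa7 is a gene of the middle of the Hoxa cluster, whose protein acts in the patterning of the trunk. Its gene (ENSMUSG00000038236.8) lies on the minus strand at chr6:52214491-52221854 of mm10, with 2876 exonic bases. The vehicle libraries held 126, 224 and 8 counts of Hoxa7, or 436, 497 and 94.3 CPM, and the E2 libraries held 3, 4 and 8 counts, or 23.8, 20.1 and 39.8 CPM. All 3 E2 libraries were below all 3 vehicle libraries, as was so for 12.8% of the 1682 genes. The vehicle libraries were themselves far apart, since replicates 1 and 2 stood close together and far above replicate 3. By exact 95% Poisson intervals, which cover counting error only, vehicle replicate 3 (40.7 to 186 CPM) was separate from vehicle replicate 1 (363 to 519 CPM) and overlapped with E2 replicate 1 (4.91 to 69.6 CPM), E2 replicate 2 (5.49 to 51.6 CPM) and E2 replicate 3 (17.2 to 78.4 CPM). The fitted log2 fold change was -3.46 (SE 0.62, edgeR adjusted p = 0.00767), the lowest of the 1682 genes. Without vehicle replicates 1 and 2 it was -1.58 (SE 1.08, edgeR adjusted p = 0.673), in a fit in which the remaining vehicle library is assumed to vary like the E2 libraries. Without E2 replicate 2 it was -3.0 (SE 0.78, edgeR adjusted p = 0.0938). The exact two-sided permutation test of the CPM gave p = 0.1, the smallest value that 3 against 3 libraries allow.

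Hoxd3 belongs to the group of paralogs at the head end of the clusters, and has been studied in endothelial cells for its part in the angiogenic response. Its gene (ENSMUSG00000079277.9) lies on the plus strand at chr2:74711927-74748442 of mm10, with 4191 exonic bases. The vehicle libraries held 34, 76 and 17 counts, or 118, 169 and 200 CPM, and the E2 libraries 37, 64 and 51 counts, or 294, 322 and 254 CPM. Every E2 library was above every vehicle library, as was so for 8.68% of the 1682 genes, and in vehicle the values lay closer together than those of Hoxa7. The means were 162 ± 41.7 CPM in vehicle and 290 ± 34.5 CPM in E2 (SD, n = 3 each). The log2 fold change was 1.00 (SE 0.44), with an unadjusted p of 0.0343 and an adjusted p of 0.157 in edgeR's quasi-likelihood test, so that Hoxd3 did not pass the adjusted threshold. After scaling by TMM the separation remained, at 119, 156 and 203 CPM in vehicle and 314, 303 and 313 CPM in E2. Without vehicle replicates 1 and 2 the log2 fold change was 0.63 (SE 0.58, edgeR adjusted p = 0.758), and without vehicle replicate 3 it was 1.25 (SE 0.32, edgeR adjusted p = 0.00298). In the latter fit 477 of 2162 genes were higher at the adjusted threshold, so that this call stood among many.

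**Figure D2:**
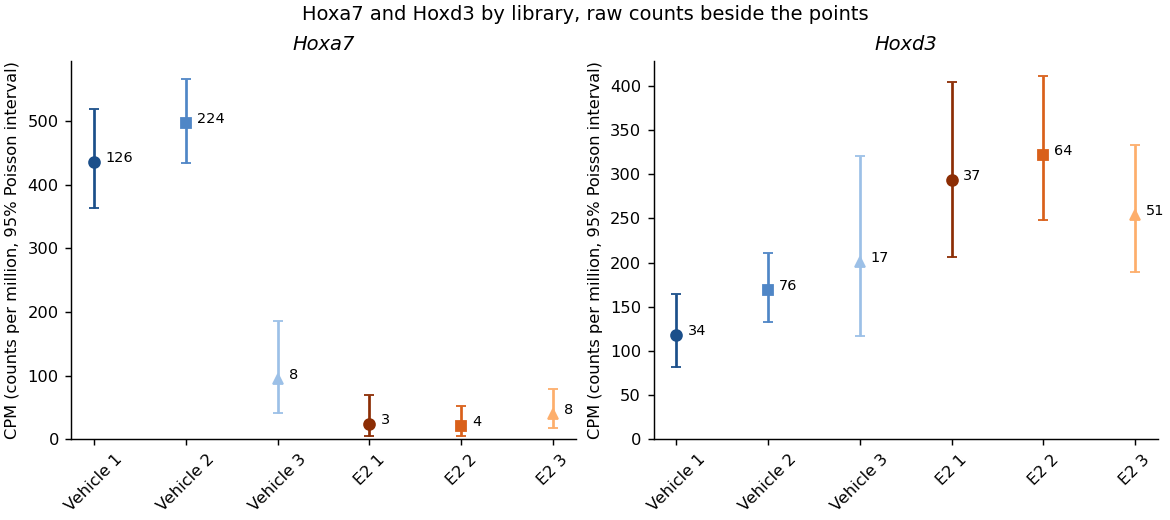
CPM of Hoxa7 (left) and Hoxd3 (right) in each of the 6 libraries, with the raw count beside each point and bars for the exact 95% Poisson interval; the vertical scales differ. Hoxa7 was at 436 and 497 CPM in vehicle replicates 1 and 2 and at most 94.3 CPM elsewhere, while Hoxd3 was between 118 and 200 CPM in vehicle and between 254 and 322 CPM in E2.

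Among the genes tested, Hoxa7 had one of the larger changes and Hoxd3 did not, although the place of Hoxa7 among them was favoured by its entry through the vehicle libraries only. Hoxa7 had a larger change in size than all but 2 of the 1682 genes and ranked 5 by p-value. Hoxd3 ranked 194 among the genes that were higher with E2, and 465 genes had a larger change in size. The median log2 fold change over all genes was 0.01 with TMM and -0.15 when libraries were scaled by their totals, where Hoxa7 was at -3.66 and Hoxd3 at 0.83, so that neither direction rested on the scaling.

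**Figure D3:**
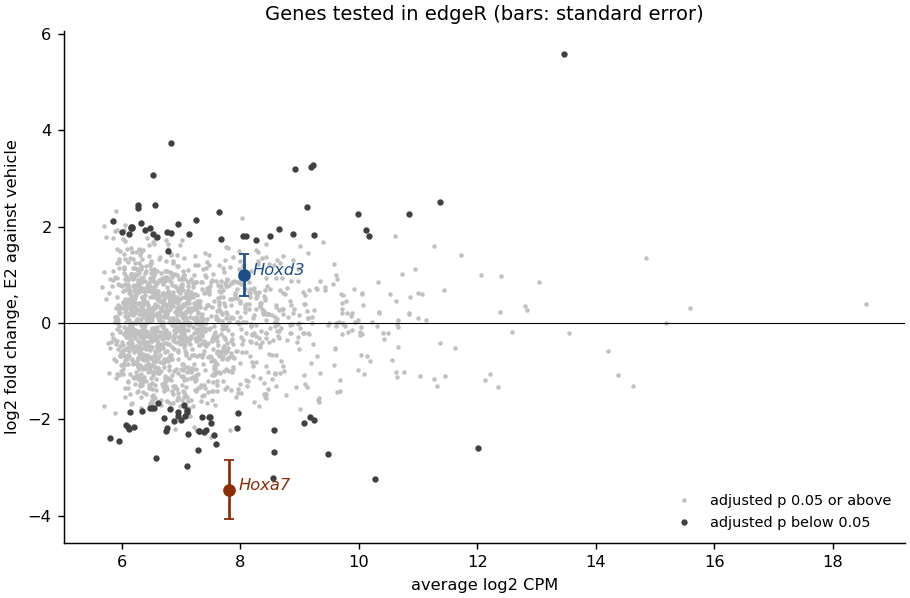
Log2 fold change of E2 against vehicle (vertical axis) over the average log2 CPM (horizontal axis) for the 1682 genes tested in edgeR; black points have an adjusted p below 0.05, and bars on the 2 Hox genes are standard errors. Hoxa7 lies at the lower edge at -3.46 and Hoxd3 among the other genes at 1.00.

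Because both genes were counted in the same library, their ratio does not depend on scaling. There were 3.71, 2.95 and 0.471 counts of Hoxa7 for each count of Hoxd3 in vehicle and 0.0811, 0.0625 and 0.157 in E2. Hoxa7 thus exceeded Hoxd3 in vehicle replicates 1 and 2 and was below it in vehicle replicate 3 and in all E2 libraries. As a share of all Hox counts, Hoxa7 made up 57.5%, 56.4% and 20.0% in vehicle and 5.17%, 4.00% and 8.99% in E2. Hoxd3 made up 15.5%, 19.1% and 42.5% in vehicle and 63.8%, 64.0% and 57.3% in E2. These shares show an unequal change of the 2 genes and not which of them changed.

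**Figure D4:**
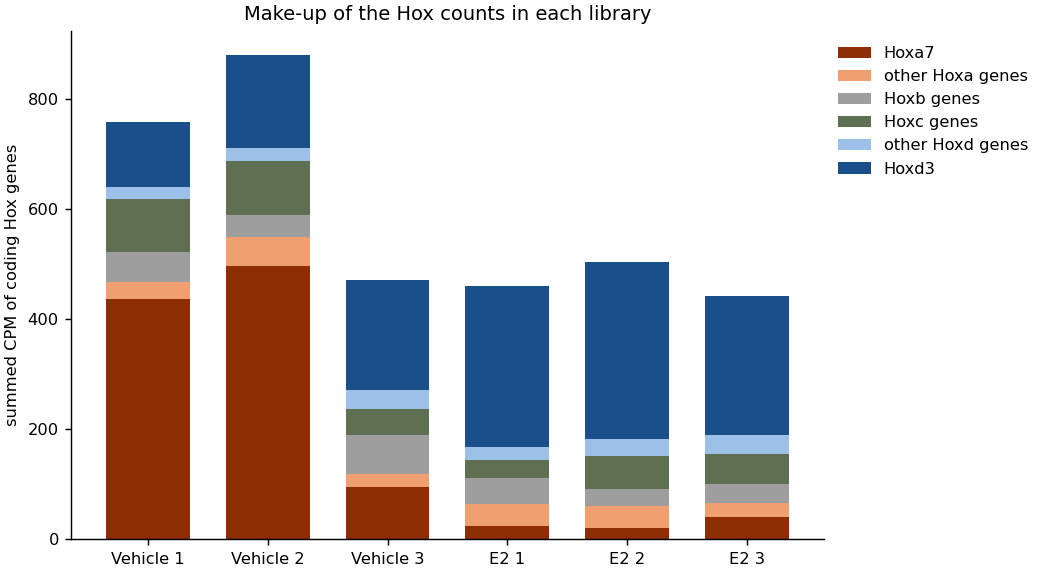
Summed CPM of the coding Hox genes in each library, stacked by Hoxa7, the other Hoxa genes, the Hoxb genes, the Hoxc genes, the other Hoxd genes and Hoxd3. The bars reach 758, 880 and 472 CPM in vehicle and 461, 504 and 443 CPM in E2; Hoxa7 fills more than any other piece in vehicle replicates 1 and 2, and Hoxd3 in the other 4 libraries.

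The clusters were next summed to ask whether neighbouring genes moved together. The Hoxa cluster was at 467, 550 and 118 CPM in vehicle and at 63.5, 60.4 and 64.7 CPM in E2, a log2 ratio of means of -2.59. Nearly all of this was Hoxa7, since the other 10 Hoxa genes together were at 31.2, 53.2 and 23.6 CPM in vehicle and 39.7, 40.3 and 24.9 CPM in E2, with a log2 ratio of -0.042. The Hoxd cluster was at 138, 193 and 236 CPM in vehicle and 318, 353 and 289 CPM in E2, a log2 ratio of 0.76. Without Hoxd3 the other 8 Hoxd genes overlapped between the groups, with a log2 ratio of 0.14. The Hoxb cluster was at 55.4, 39.9 and 70.7 CPM in vehicle and 47.6, 30.2 and 34.8 CPM in E2, and the Hoxc cluster was at 96.9, 97.6 and 47.2 CPM and at 31.8, 60.4 and 54.7 CPM, so that the groups overlapped in both. The difference in the summed CPM of each of the Hoxa and Hoxd clusters was therefore mostly that of a single gene. The other Hoxa genes held 53 counts and the other Hoxd genes 36, too few to show whether neighbours moved with it. Among the latter, Hoxd8 had a log2 ratio of 0.83 and the Hoxd genes 9 to 13 one of -1.18. Without vehicle replicates 1 and 2 the log2 ratios were -0.91 for Hoxa, -0.91 for Hoxb, 0.055 for Hoxc and 0.44 for Hoxd.

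The 39 genes together were at 703 ± 210 CPM in vehicle and 469 ± 31.3 CPM in E2 (SD, n = 3 each), and the groups overlapped. Without vehicle replicates 1 and 2 the difference was gone, with 472 CPM in the remaining vehicle library and a log2 ratio of -0.0079. The 37 genes other than Hoxa7 and Hoxd3 were at 204, 215 and 177 CPM in vehicle and 143, 161 and 149 CPM in E2, a log2 ratio of -0.40. The groups did not overlap when scaled by library totals. They did after TMM scaling, with 207, 198 and 179 CPM in vehicle, 153, 151 and 184 CPM in E2 and a log2 ratio of -0.26, so that this difference depended on the scaling. The log2 ratio was -0.23 without vehicle replicates 1 and 2.

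By position within the clusters, paralogs 1 to 3 were at 135, 182 and 224 CPM in vehicle and 318, 332 and 264 CPM in E2, nearly all of it Hoxd3. Paralogs 4 to 8 were at 495, 572 and 165 CPM in vehicle and 71.5, 70.5 and 99.5 CPM in E2, and here most of the counts of the vehicle libraries were those of Hoxa7. Paralogs 9 to 13, the genes used at the tail end of the trunk and in the limb, were at 128, 126 and 82.5 CPM in vehicle and 71.5, 101 and 79.6 CPM in E2, and overlapped. Without Hoxa7 and Hoxd3, paralogs 1 to 3 were at 17.3, 13.3 and 23.6 CPM in vehicle and 23.8, 10.1 and 9.95 CPM in E2. Apart from these 2 genes, paralogs 9 to 13 thus held the most counts of the 3 position classes, 146 against 85 for paralogs 4 to 8 and 20 for paralogs 1 to 3. Over all genes of a class, the log2 ratio without vehicle replicates 1 and 2 was 0.44 for paralogs 1 to 3, -1.04 for paralogs 4 to 8 and 0.024 for paralogs 9 to 13, against 0.76, -2.35 and -0.42 with all libraries.

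The direct paralogs of Hoxa7 and Hoxd3 gave fewer counts. Hoxb7, the other gene of its paralog group, had 9, 8 and 4 counts in vehicle and 3, 3 and 4 in E2, and the groups overlapped in CPM. Too low for the main filter, it had a log2 fold change at a filter of at least 10 counts over the 6 libraries (6843 genes) of -0.36 (SE 0.71, edgeR adjusted p = 0.836). Of the paralogs of Hoxd3, Hoxa3 was at 0 in all libraries and Hoxb3 had 4, 0 and 1 counts in vehicle and 1, 2 and 0 in E2. Hoxd4, the next gene toward the tail end of its own cluster, was also at 0 in all libraries.

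Per kilobase of exon, Hoxa7 stood first in vehicle at 119 ± 75.4 CPM per kilobase, before Hoxd3 at 38.7 ± 9.95 and Hoxb7 at 20.7 ± 9.54 (SD, n = 3). This order was that of vehicle replicates 1 and 2, where Hoxa7 was at 152 and 173 CPM per kilobase. In vehicle replicate 3 Hoxa7 was at 32.8 and Hoxd3 at 47.8 CPM per kilobase, so that Hoxd3 stood first there, as in E2. In E2 the order was Hoxd3 at 69.2 ± 8.23, Hoxc9 at 16.2 ± 11.4, Hoxb7 at 12.7 ± 2.83 and Hoxa7 at 9.71 ± 3.63 CPM per kilobase, of which the last 3 did not differ beyond their spread. Hoxc9 (14.3 ± 4.42) and Hoxc10 (12.6 ± 11.0) followed in vehicle and did not differ from Hoxb7 beyond their spread.

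Among the posterior genes, which carry positional identity of the hind part of the trunk and the hindlimb, Hoxc9 and Hoxc10 had the most counts. Hoxc10 had 10, 17 and 0 counts in vehicle and 3, 0 and 0 in E2, so that vehicle replicate 3 and 2 of the E2 libraries had none. It passed the filter of at least 10 counts through the vehicle libraries only. At that filter its log2 fold change was -2.14 (SE 0.89), with an unadjusted p of 0.0167 and an adjusted p of 0.154 in edgeR. Single libraries moved this value both ways. It was -5.88 without E2 replicate 1 (edgeR adjusted p = 0.0731) and -2.43 without vehicle replicate 3 (edgeR adjusted p = 0.0244). It was smaller in size without vehicle replicate 1 (-1.85), vehicle replicate 2 (-1.80), E2 replicate 2 (-1.44) or E2 replicate 3 (-1.57). In these latter fits the unadjusted p in edgeR was 0.0803 to 0.139 and the adjusted p 0.416 to 0.667, so that neither threshold was passed. All vehicle counts of Hoxc10 came from replicates 1 and 2, so that without them no decrease could be measured. Hoxc9 had 13, 16 and 2 counts in vehicle and 1, 12 and 10 in E2, and the groups overlapped (log2 fold change 0.32, SE 0.58, edgeR adjusted p = 0.828). The 2 neighbouring genes thus differed in which libraries held their counts, and only Hoxc9 was counted in all 6.

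Hoxa9 had 3, 6 and 0 counts in vehicle and 1, 1 and 0 in E2. Hoxa10, whose human counterpart is known as a target of ovarian steroids in the uterus, had 1, 11 and 1 counts in vehicle and 2, 3 and 3 in E2. Its log2 fold change at the filter of at least 10 counts was 0.19 (SE 0.85, edgeR adjusted p = 0.935), and 11 of its 21 counts lay in vehicle replicate 2. Hoxd8 had 3, 8 and 1 counts in vehicle and 2, 6 and 5 in E2. Its groups overlapped when scaled by library totals, and after TMM scaling all E2 libraries were above all vehicle libraries (log2 fold change 0.90, SE 0.75, edgeR adjusted p = 0.566). Hoxb2, the remaining gene with 10 counts or more, had 1, 5 and 1 counts in vehicle and 1, 0 and 2 in E2.

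Of these 9 genes, 1 was lower and 0 were higher at the adjusted threshold, where 2.63% of the 6843 genes were lower and 1.21% higher. When edgeR's p was taken unadjusted, at 0.05 or less, 2 were lower (Hoxa7 and Hoxc10) and 1 was higher (Hoxd3), where the shares over all genes were 11.6% and 6.66%. Since Hoxc10 reached this filter through its vehicle counts only, nothing is read from the count of lower genes. All E2 libraries were below all vehicle libraries for 1 of the 9 and above them for 1, against 10.5% and 6.17% of the 6843 genes. The median log2 fold change was -0.36 for the 9 genes and -0.06 for all genes. The remaining 15 genes with counts had 1 to 9 in all, too few for a test of each. Of them, 5 had counts in vehicle libraries only, namely Hoxc4, Hoxc6, Hoxc8, Hoxd10 and Hoxd11, and 0 in E2 libraries only. Over all genes with 1 to 9 counts these shares were 29.2% and 17.9%, and the vehicle libraries held 824695 counts in all against 525479 in the E2 libraries.

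Over all Hox genes with a count, 3 were lower in all E2 libraries than in all vehicle libraries, namely Hoxa7, Hoxc6 and Hoxc11, and 1 was higher, Hoxd3. Over the 14057 genes with a count, 6.11% were lower and 4.39% higher in this sense. Hoxc6 had 1, 5 and 1 counts in vehicle and 0 in each E2 library. Hoxc11 had 3, 3 and 1 counts in vehicle and 0, 0 and 1 in E2. With Hoxc4 and Hoxc8, the Hoxc genes 4 to 8 had 2, 8 and 1 counts in vehicle and 0 in every E2 library, where a count of 0 over the 3 E2 libraries together allows up to 5.71 CPM. The other genes of this class, Hoxa2, Hoxa4, Hoxa11, Hoxa13, Hoxb3, Hoxb5, Hoxb6, Hoxb8 and Hoxd9, had 2 to 9 counts in all and overlapped between the groups.

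Among the 15 genes without a count were those at both ends of the Hoxb cluster (Hoxb1 and Hoxb13) and of the Hoxd cluster (Hoxd1 and Hoxd13), and Hoxc12 and Hoxc13 at the tail end of the Hoxc cluster. Over the 6 libraries together, 0 counts allow up to 2.22 CPM for each, so that low levels of these genes were not detectable at this depth.

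The antisense and opposite-strand RNAs were read next, since some share bases with the coding genes. Hoxa11os lies on the plus strand at chr6:52244393-52249799 of mm10, and 800 of its exonic bases are shared with Hoxa11 on the other strand. It had 1, 1 and 0 counts in vehicle and 1, 9 and 5 in E2, with the E2 libraries all above the vehicle libraries in CPM. Hoxa11os was too low for the main filter, and it passed the filter of at least 10 counts through the E2 libraries only. Its log2 fold change there was 3.37 (SE 1.00, edgeR adjusted p = 0.0287), a call that did not hold under most other settings. Without a filter the adjusted p was 0.0861 in edgeR, with the replicate block at the filter of at least 10 counts it was 0.198, and without E2 replicate 2, which held 9 of its counts, the log2 fold change was 2.84 (SE 1.28, edgeR adjusted p = 0.318). Leaving out other libraries gave edgeR adjusted p from 0.00903 to 0.361, and leaving out vehicle replicates 1 and 2 together gave 0.839. Hoxa11 itself had 4, 1 and 0 counts in vehicle and 0, 4 and 0 in E2. The sources used here do not give whether the strand was used in the counting, so reads from the shared bases of this pair cannot be assigned to either gene.

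Hoxd3os1 had 1, 3 and 1 counts in vehicle and 3, 2 and 0 in E2, with a log2 fold change of 0.75 (SE 1.09, edgeR adjusted p = 0.774) at the filter of at least 10 counts. Hotair, an RNA of the Hoxc cluster, had 2 counts in vehicle replicate 2 and 0 elsewhere, and Hottip, at the tail end of the Hoxa cluster, was at 0 in all libraries. Hoxd3 shares 347 exonic bases with Hoxd3os1 and 388 with Hoxd4, and 53.1% of its exonic bases with Gm28230, a gene model on the same strand that has no symbol in the count table. Hoxa7 shares 586 exonic bases, 20.4% of its exons, with the antisense RNA Hoxaas3, which has no symbol in the table either. The counts of Hoxa7 and Hoxd3 are uncertain to the extent that reads from these shared bases were split or left out in the counting.

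The microRNA genes of the clusters gave 10 counts, all on Mir196b, with 2, 1 and 0 in vehicle and 4, 3 and 0 in E2. Its hairpin lies wholly within an exon of Hoxa9 on the same strand. Mir10a, Mir10b, Mir196a-1, Mir196a-2 and Mir615 were at 0 in all libraries, and Mir10b lies within the span of Hoxd3 outside its exons. Counts on a hairpin gene are not counts of the mature microRNA. The mature sequences from RefSeq (GRCm38.p6) are shown for the counted microRNA of the Hoxa cluster and for the microRNA inside Hoxd3, with the seed (bases 2 to 8), which pairs with target RNAs, in capitals.
mmu-miR-196b-5p: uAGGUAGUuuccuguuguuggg
mmu-miR-10b-5p: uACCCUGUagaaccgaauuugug

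The start regions of Hoxa7 and Hoxd3 are shown because these are the 2 Hox genes that could be tested. RefSeq promoter windows (GRCm38.p6, from 250 bases before to 50 after a start) were matched for 22 of the 39 genes by 24 windows, and the part before any annotated exon is printed 5′ to 3′ on the gene's strand. The Hoxa7 stretch lies at chr6:52218712-52218823 on the minus strand, within the longer gene model but in no exon. The Hoxd3 stretch lies at chr2:74711743-74711926 on the plus strand. Capitals mark TGACCT, the reverse complement of AGGTCA, the core hexamer of estrogen response elements.
Hoxa7: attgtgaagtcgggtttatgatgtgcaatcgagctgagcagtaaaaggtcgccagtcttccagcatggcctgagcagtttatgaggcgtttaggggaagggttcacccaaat
Hoxd3: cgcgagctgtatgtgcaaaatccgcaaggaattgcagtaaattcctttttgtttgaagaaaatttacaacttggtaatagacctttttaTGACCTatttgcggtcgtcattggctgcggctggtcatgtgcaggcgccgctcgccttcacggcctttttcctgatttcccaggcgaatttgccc

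AGGTCA on either strand occurred in the windows of 7 Hox genes (Hoxa5, Hoxb4, Hoxc4, Hoxd3, Hoxd4, Hoxd8 and Hoxd10) and in 16.3% of the 32851 windows of all genes. Of these 7 genes, Hoxa5, Hoxb4 and Hoxd4 had no count in any library. The palindromic element, GGTCA followed after any 3 bases by TGACC, was in none of the Hox windows and in 23 of all windows. TATAAA was in the windows of 4 Hox genes and in 13.6% of all windows, and in neither of the 2 shown. A match is a description of the letters in these windows and not a binding site. The windows of the Hox genes held a median of 14.5 CG dinucleotides, against 7 over all windows, and the window of Hoxd3 held 20 and that of Hoxa7 held 9.

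Genes that act with the Hox proteins or on the clusters were counted as lists. Of the TALE cofactors, Meis1, Meis2 and Meis3 had 2 to 4 counts each. Of 27 Polycomb genes, which silence the clusters, only Rbbp4 was tested, at a log2 fold change of 0.21 (SE 0.45, edgeR adjusted p = 0.798). Of 16 Trithorax and Kmt2 complex genes, 3 were tested, Kmt2c (0.27), Kmt2d (-0.29) and Psip1 (0.03), the latter a reader of histone methylation that acts with Kmt2a. None of these 3 passed the adjusted or the unadjusted threshold in edgeR. The 18 genes of the Cdx and retinoic acid input to Hox transcription, the 4 limb identity genes and the 12 genes flanking the clusters were too low for the main filter.

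At the filter of at least 10 counts, 4 TALE cofactors, 15 Polycomb genes, 13 Trithorax genes, 8 Cdx and retinoic acid genes and 4 flanking genes were tested by edgeR, and 0 of them passed the adjusted threshold. At an unadjusted p of 0.05 or less, 1 TALE cofactor was higher (Pknox2), 1 Polycomb gene was lower (Aebp2), and among the flanking genes 2 were lower (Skap2 and Lnp) and 1 was higher, where 11.6% of all genes at this filter were lower and 6.66% higher. The higher flanking gene was Mtx2, a mitochondrial import gene next to the Hoxd cluster, which had 0, 4 and 1 counts in vehicle and 5, 4 and 8 in E2 (log2 fold change 2.49, SE 0.83, edgeR adjusted p = 0.0582). These 5 genes were chosen for mention after their values were seen. Aebp2 had 23, 39 and 3 counts in vehicle and 2, 3 and 8 in E2, and its log2 fold change went from -1.41 to -0.31 without vehicle replicates 1 and 2 (edgeR adjusted p = 0.966). Skap2 had 30, 23 and 1 counts in vehicle and 2, 8 and 3 in E2, and without vehicle replicates 1 and 2 its log2 fold change turned from -1.24 to 1.17 (SE 1.44, edgeR adjusted p = 0.875). In the same fit Lnp was at -3.96, Pknox2 at 1.52 and Mtx2 at 1.6, against -2.77, 1.78 and 2.49 with all libraries, with edgeR adjusted p of 0.652 or more. Evx1 and Evx2, the homeobox genes at the tail ends of the Hoxa and Hoxd clusters, were at 0 in all libraries.

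Markers of the cells the muscle could hold moved with the groups to different degrees. Of the 3 endothelial markers tested, Kdr, the receptor of vascular endothelial growth factor, was lower at an unadjusted p of 0.00645 (log2 fold change -2.22, edgeR adjusted p = 0.0764). Like Hoxa7, it was high in vehicle replicates 1 and 2 and low elsewhere, with 93, 118 and 0 counts in vehicle and 2, 10 and 10 in E2, so that its decrease rested on those 2 libraries. Cdh5, which encodes VE-cadherin, had a log2 fold change of 0.13 (SE 0.56, edgeR adjusted p = 0.906). Of 10 muscle fiber genes, Tnnt3 and Myh4 were lower and Acta1 higher at an unadjusted p of 0.05 or less (15.1% and 10.5% of all genes tested). Of 2 adipocyte markers tested, Fabp4 was lower at the adjusted threshold (-1.81, edgeR adjusted p = 0.0499), as were 2.97% of all genes tested. The other, Cidec, went the other way (1.05, SE 0.67, edgeR adjusted p = 0.336). Without vehicle replicates 1 and 2 the log2 fold change was -0.20 for Tnnt3, -0.11 for Myh4, 0.96 for Acta1 and -0.72 for Fabp4, with edgeR adjusted p of 0.587 or more. The summed level of smooth muscle and pericyte markers was 118 to 675 CPM in vehicle and 212 to 230 CPM in E2, and Myh11 was lower in this list (-1.32, unadjusted p = 0.0283 in edgeR). Without vehicle replicates 1 and 2 the direction of Myh11 turned (0.92, SE 0.72, edgeR adjusted p = 0.724). At the filter of at least 10 counts, 8 endothelial, 10 muscle fiber and 3 adipocyte markers were tested. Kdr (edgeR adjusted p = 0.00439), Fabp4 (0.0276) and Plin1 (0.0376) were lower and Acta1 (0.0104) was higher at the adjusted threshold. Over all 6843 genes 2.63% were lower and 1.21% higher. The pancreatic genes Cpa1, Prss2 and Pnlip and the Y-linked Eif2s3y were also lower there, and Xist was higher. Without vehicle replicates 1 and 2 the log2 fold change was 5.70 for Kdr, -0.63 for Fabp4, 1.77 for Plin1 and 1.05 for Acta1. Kdr and Plin1 had 0 counts in vehicle replicate 3, and their fitted direction turned without the other 2 vehicle libraries. Tek, the endothelial receptor of angiopoietins, was another marker with most of its counts in those libraries, with 24, 41 and 2 counts in vehicle and 3, 5 and 3 in E2 (log2 fold change -1.66 at this filter, edgeR adjusted p = 0.0935). Fibroblasts, whose adult populations carry Hox patterns, gave a steadier sum of 571 to 660 CPM in vehicle and 517 to 611 CPM in E2, and 0 of 4 tested markers passed the unadjusted or the adjusted threshold in edgeR. Immune markers summed to 27.7 to 58.9 CPM in vehicle and 39.7 to 64.7 CPM in E2, squamous epithelial markers to 10.4 to 47.2 CPM and 0 to 20.1 CPM, and satellite cell markers to 0 to 10.4 CPM and 0 to 15.9 CPM, with Pax7 and Myog at 0 in all libraries. The part of these cell types, and of the pancreatic and Y-linked counts of vehicle replicates 1 and 2, in the values of Hoxa7 and Hoxd3 was not tested.

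The fold changes of Hoxa7 and Hoxd3 kept their direction when filters, scaling, tools and libraries were changed. For both genes the groups did not overlap, with library totals or with TMM scaling. Leaving out libraries could therefore not turn the direction, and the kept direction is no added support. Hoxa7 was lower in all 17 alternatives that gave a value, from -3.86 to -1.58, and its edgeR, DESeq2 or limma adjusted p was below 0.05 in 13 of them. Hoxd3 was higher in all 18, from 0.63 to 1.25, and its adjusted p was below 0.05 in 1, the edgeR fit without vehicle replicate 3, in which 477 of 2162 genes were called higher.

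**Figure D5:**
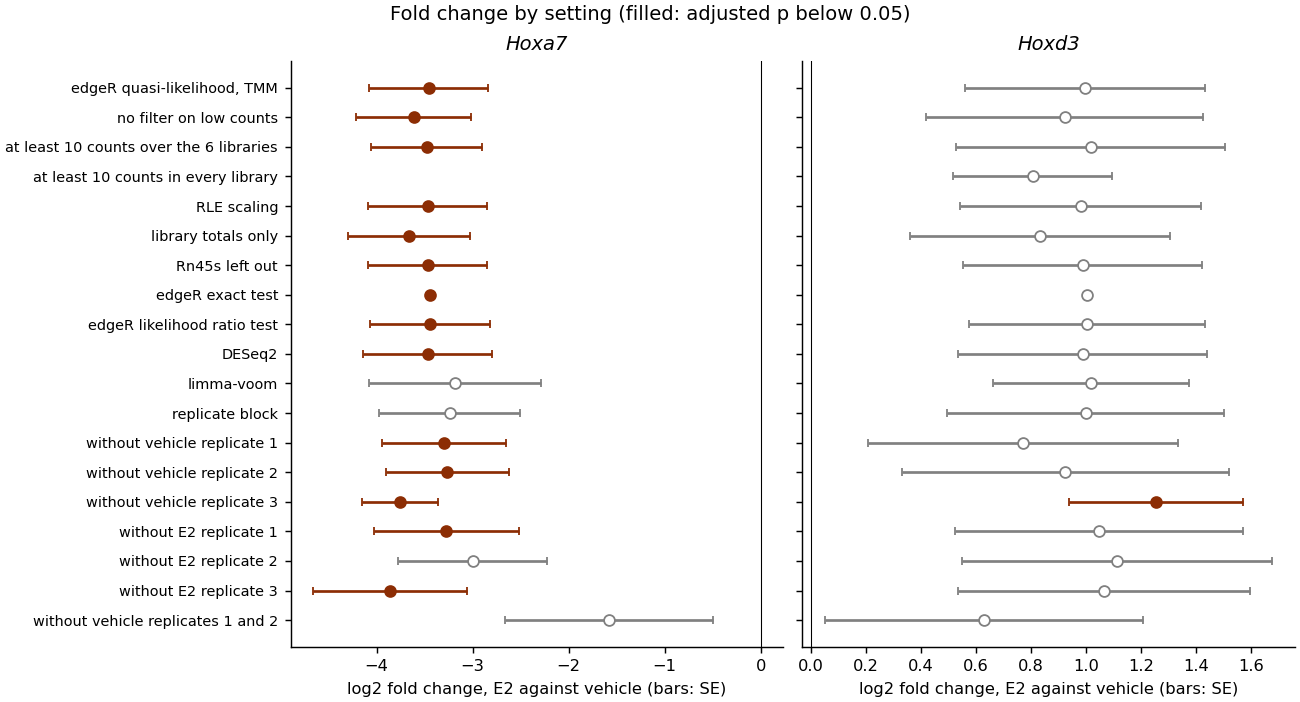
Log2 fold change of E2 against vehicle for Hoxa7 (left) and Hoxd3 (right) under each setting, with the standard error as a bar where the tool gives one; filled symbols have an adjusted p below 0.05 and the horizontal scales differ. All Hoxa7 values lie below 0 and all Hoxd3 values above 0, with the smallest change of both genes in the fit without vehicle replicates 1 and 2.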

How the data were processed

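The authors used bcl2fastq (2.17) for demultiplexing, FastQC (0.11.2) for quality, STAR (2.5.3a) for mapping to mm10 and featureCounts of Subread (1.6.0) for counting, with versions from the study's methods and the submitters' processing notes. What was deposited are raw counts per gene symbol, without normalization. The setting of featureCounts for strand was not given in the sources used here, and the library kit differs between the labels (a stranded total RNA kit with polyadenylated RNA) and the study's methods (a ribosome profiling kit).

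Groups were taken from the labels. From the deposited counts, E2 was compared with vehicle over all 6 libraries with edgeR (4.0.16) in R (4.3.3), using filterByExpr (which needs 10 counts at the median depth), TMM scaling, the quasi-likelihood test and Benjamini-Hochberg adjustment over all genes tested. Genes were called below an adjusted p of 0.05, and separately up to an unadjusted p of 0.05. Standard errors were computed as the log2 fold change over the square root of F. CPM used the total of all counts in a library, except where TMM scaling is named. Sums over genes and over clusters are descriptions without a test. DESeq2 (1.42.0), limma (3.58.1) and other filters, scalings and sets of libraries were alternatives. Genes below the filter were described by their counts, and fold changes at a filter of at least 10 counts over the 6 libraries were given for them. All Hox genes were accounted for, and of each list the genes at an unadjusted p of 0.05 or less in the main fit and up to 3 others were named, with further genes at the lower filter named after their values were seen. Some genes of the lists are not reported here. The members and the lists were chosen with earlier results of these data known. Positions and shared exons are from GENCODE release M21 (mm10), whose gene models may differ from those the authors counted. No molecular identifiers are described for these reads, so intervals and floors cover counting error only.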

Additional observations from a re-analysis of the deposited data

How the results depend on the processing

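With 1 Hox gene lower and 0 higher at the adjusted p in edgeR (1 and 1 at the unadjusted p), the lower gene was Hoxa7 and was lost (0 lower) with at least 10 counts in every library, with limma-voom, with the replicate block and without vehicle replicates 1 and 2. Leaving out each library in turn gave 0 to 1 lower (0 without E2 replicate 2) and 0 to 1 higher (1, Hoxd3, without vehicle replicate 3) at the adjusted p. At the unadjusted p, 3 were lower without a filter (Hoxa7, Hoxc6 and Hoxc10, where 957 of 14057 genes were lower and 459 higher), 2 with at least 10 counts in all, and 0 with at least 10 in every library, where Hoxa7 was not tested, or without vehicle replicates 1 and 2. Hoxd3 was the 1 higher gene, and 0 were higher without a filter, with library totals only, with the replicate block or without vehicle replicates 1 and 2, and 0 to 1 when single libraries were left out (1 only without vehicle replicate 3).

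Hoxa7 fell short of the adjusted p with limma-voom (log2 fold change -3.18, adjusted p = 0.0577), in edgeR with the replicate block (-3.24, 0.0611), without E2 replicate 2 (-3.0, 0.0938) and without vehicle replicates 1 and 2 (-1.58, 0.673), and ranged from -3.86 to -3.0 when single libraries were left out. Hoxd3 ranged from 0.77 to 1.25 in those fits and was at 1.00 (adjusted p = 0.310) with the replicate block in edgeR. The deviations of libraries with the same replicate number from their group means correlated at -0.13, 0.02 and -0.19. Since vehicle replicates 1 and 2 stood far from vehicle replicate 3, these values cannot decide whether the numbers pair the libraries. Why these calls changed was not tested, apart from the fewer libraries of the fits that leave some out.

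The Hoxa sum moved from -2.59 to -0.042 without Hoxa7 and to -0.91 without vehicle replicates 1 and 2, the Hoxc sum from -0.72 to 0.055 without vehicle replicates 1 and 2, and the Hoxd sum from 0.76 to 0.14 without Hoxd3 and to 0.44 without those replicates. The sums without Hoxa7 or Hoxd3 and the refits of Hoxa11os, Hoxc10 and the list genes were chosen after seeing the data.

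Over all genes, 50 were lower and 42 higher at the adjusted p. The number lower was 132 without a filter, 180 with at least 10 counts, 0 with at least 10 in every library in edgeR (89 at the unadjusted p), 90 with library totals only, 107 with edgeR's exact test, 152 with its likelihood ratio test, 9 with limma-voom, 1 with the replicate block, 1 without vehicle replicates 1 and 2, and 2 to 526 without single libraries, the highest without vehicle replicate 3. The number higher was 83 with at least 10 counts, 11 with at least 10 in every library, 76 with the exact test, 105 with the likelihood ratio test, 7 with the replicate block, 6 without vehicle replicates 1 and 2, and 6 to 477 without single libraries, the highest again without vehicle replicate 3. Depth limits what can be said of the 37 other genes, of which none could be tested at the main filter.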
